A study of Mus musculus with 2 samples.

Results

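The cytosolic ribosomal protein genes were described in X63/0 cells (X63-Ag8.653), a mouse myeloma line of B cell origin, after cycloleucine and without treatment. Members were all features with an annotated transcript whose symbol was Rpl or Rps, digits and at most one letter, together with Rplp0, Rplp1, Rplp2 and Rpsa. This gave 81 of the 43346 features in the table, 49 of the large and 32 of the small ribosomal subunit. The cycloleucine library came from a culture kept for 3 h in 30 mM cycloleucine, and the untreated library from a culture of the same line without it. Cycloleucine blocks methionine adenosyltransferase, which makes S-adenosylmethionine (SAM), the donor of most methyl groups in the cell. RNA was depleted of ribosomal RNA and sequenced on an Ion Proton. The design text speaks of triplicates, but the table analysed here held 1 library per group, so differences could not be set against replicate spread and no test was made. In such bulk libraries, fewer cells of a kind and less RNA per cell cannot be told apart.

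Most ribosomal protein genes were slightly higher in the cycloleucine library. Of 78 members measured, 62 had a log2 fold change above 0 and 16 below, with a median of 0.09. Over all measured features 50.9% lay above 0. The small subunit genes had a median of 0.13 and the large subunit genes 0.07. The differences were small: 2 members, Rps14 and Rpl35a, were higher by 25% or more, and 2, Rpl21 and Rpl24, lower by 20% or more, the same size of ratio in the other direction. Of all 9613 measured features 9.7% were that much higher and 7.92% that much lower, so the members' shares lay below the background in both directions. At a ratio of 1.5, 1 member was higher (Rpl35a) and 1 lower (Rpl21), where 3.03% and 2.47% of all features were. At a ratio of 2 no member was past it in either direction, where 0.728% of all features were higher and 0.666% lower. A feature counted as measured when one library or both had 1 RPKM or more and both together 50 reads. RPKM is exon reads per length of exon and per total of gene reads, and 0.1 RPKM was added to both values before each log2 fold change.

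Ribosomal proteins coat and order the ribosomal RNA of both subunits and are made in matched amounts from many unlinked genes. Their mRNAs begin with a C followed by a run of pyrimidines, the 5′ terminal oligopyrimidine (TOP) tract, through which LARP1 and the kinase mTOR adjust their translation to amino acid supply. In dividing cells they are among the most abundant mRNAs. Because these mRNAs are abundant, the mouse genome carries many processed copies of them, and reads can often be placed in more than one copy.

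The start windows are shown because the TOP tract is a feature the members share beyond their names. RefSeq promoter entries (GRCm38.p6, the mm10 assembly) were matched by symbol for 60 of the 81 members, 72 entries in all, each with 250 bases before and 50 after the annotated start. Pyrimidines filled the first 5 bases from the annotated start in 16 of 72 member entries (22.2%), against 4.44% of all 32851 entries. The windows below run from 8 bases before to 20 bases from the start, in the direction of transcription. They are shown for members with a tract of at least 8 bases from the annotated start, and the capitals mark that stretch.
Rpl15 at chr14:18270967-18270994, minus strand: aaagccttCTTCCTTTCCTCTggcggca
Rpl27a at chr7:109519187-109519214, plus strand: tgagctccTCCCTTTTCCCTTTCTgcca
Rpl28 at chr7:4792957-4792984, plus strand: tcgtgtctCTCTTTCCgtctccggccgc
Rpl35 at chr2:39005112-39005139, minus strand: gccctttcCTCTTTCTCTCgaaccaggc
Rpl35a at chr16:33056474-33056501, plus strand: ttgccttcCTCTTTCCgccatcttggcg
Rpl38 at chr11:114668572-114668599, plus strand: gcctcgttCTTTCCCCgttctcttcggt
Rps6 at chr4:86857348-86857375, minus strand: agtcgggcCTCTTTTTCgtgacgcctcc
Rps10 at chr17:27635225-27635252, minus strand: gcacgcccCTTCCTTTCCagcctccgcc
Rps15a at chr7:118116128-118116155, minus strand: tctgccatCTTCCCTCgccggtgagtga
Rps18 at chr17:33955646-33955673, minus strand: cttccgctCTCTCTTCCacaggaggcct

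The capitals begin at the annotated start, where 9 of these 10 windows have C and Rpl27a has T. In all 10 the base just before is also a pyrimidine. The pyrimidine run therefore begins before the capitals, and the first capital does not show how it opens. Annotated starts can lie several bases away from the base where transcription begins, so a window without a tract says only that these letters are not at the annotated start. The motif CTCTTTC, searched on the gene's strand and able to overlap the start tract, was in 20.8% of the member entries and 3.99% of all entries. CCGGAAGT, the core of ETS factor sites, searched on both strands, was in 16.7% and 3.89%. AAGATGGC, the core of YY1 sites, searched on both strands, was in 9.72% and 2.75%. From total reads the median log2 fold change was 0.10 over 16 measured members with a start tract and 0.10 over 42 without, and from unique reads 0.14 over 14 and 0.10 over 41. With CTCTTTC it was 0.10 over 13 members from total and 0.06 over 12 from unique reads, against 0.10 over 45 and 0.12 over 43 without it. With CCGGAAGT it was 0.13 from total and 0.21 from unique reads, over 12 members each, against 0.10 over 46 and 0.09 over 43 without it. With AAGATGGC it was 0.03 over 5 members from total and 0.12 over 3 from unique reads, against 0.10 over 53 and 0.10 over 52 without it. None of these differences was tested.

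The libraries held 31951946 reads in genes after cycloleucine and 27127865 without treatment. Plasma cell markers were present (6 of 6 measured, with summed RPKM of 312 in the cycloleucine and 307 in the untreated library). None of the 5 T and natural killer cell markers or 4 fibroblast markers was measured, and Cd68 alone of 4 myeloid markers in the table was. Mat2a, the SAM synthetase gene, was at 182 RPKM in the cycloleucine and 71.2 RPKM in the untreated library. The median log2 fold change over all measured features was 0.0035 from total reads and 0.04 from uniquely placed reads. Counting intervals given here are 95% exact (Clopper-Pearson) intervals and cover counting error only, since reads amplified by PCR carry no molecular identifiers and may repeat 1 molecule.

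Ribosomal protein exons took 7.19% of all exon reads in the cycloleucine library and 6.85% in the untreated library. Of these reads 36.6% were uniquely placed, against 79.7% over all features, so values from unique reads are given beside those from total reads for the members. The median RPKM of the measured members was 226 in the cycloleucine and 219 in the untreated library, and 62 of 81 members were at 100 RPKM or more in both. Rplp1, an acidic protein of the stalk that recruits elongation factors, had the highest value, with 1509 RPKM in the cycloleucine and 1488 RPKM in the untreated library. Next in the untreated order came Rps24, Rpl8, which lies at the peptidyl transferase centre, Rps15, which reaches the decoding site, Rpl4, whose loop lines the peptide exit tunnel, and Rps7. These 5 genes ranged from 1014 to 1245 RPKM in the cycloleucine and from 929 to 1100 RPKM in the untreated library. At the low end of the measured members Rpl21 had 1.56 and Rpl35a 5.07 RPKM in the cycloleucine library, against 2.45 and 3.17 RPKM in the untreated library. RPKM divides by the length of all annotated exons of a gene, including rare transcripts, and reads placed in copies are spread over them, so these levels do not give the relative amounts of the mRNAs.

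**Figure D1:**
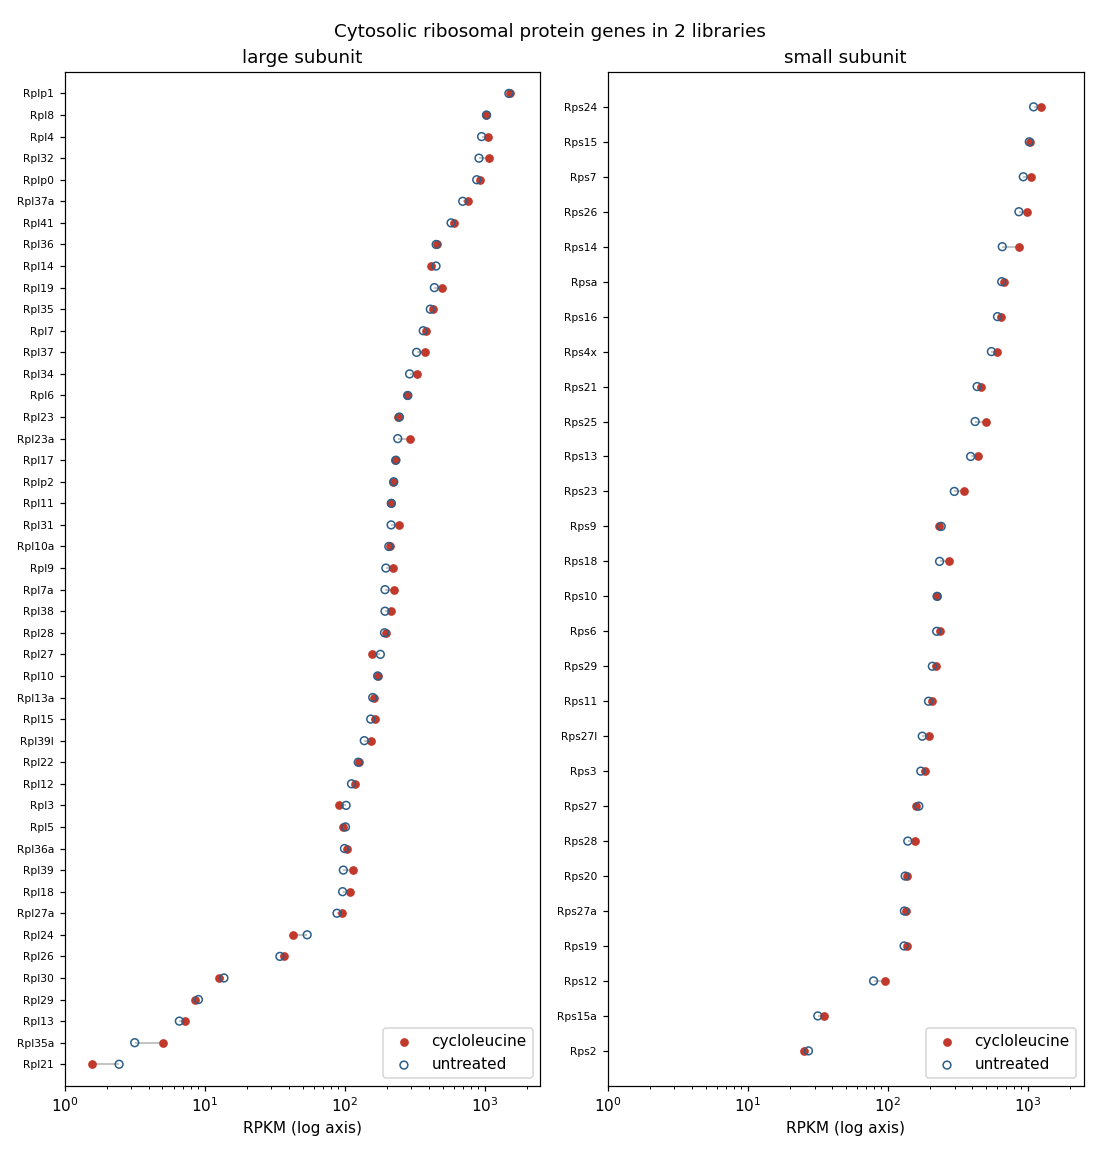
RPKM (log axis) of 74 of the 78 measured ribosomal protein genes, large subunit left and small subunit right, with filled points for the cycloleucine library and open circles for the untreated library (1 library each). Most filled points lie at or just right of the open circle, the widest gaps upward are in Rpl35a and Rps14, and Rpl21 and Rpl24 lie to the left.

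The direction was more uniform among small subunit genes. Of 31 measured small subunit genes 28 lay above 0 and 3 below from total reads, with a range from -0.11 to 0.39, and of 47 large subunit genes 34 lay above and 13 below, from -0.62 to 0.66. Over all measured features 50.9% lay above 0. From unique reads 74 members passed the same filter, and the medians were 0.15 for 29 small and 0.05 for 45 large subunit genes, with 25 and 31 of them above 0, against 57.6% of all features. With at least 1000 unique reads over both libraries, a restriction chosen after the values were seen, the medians were 0.15 over 24 small and 0.10 over 33 large subunit genes. Whether the subunits differ could not be tested with 1 library per group.

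Other abundant genes were also slightly higher. The 217 other annotated features with a mean RPKM of at least 100 and enough unique reads had a median log2 fold change of 0.09 from unique reads, between the small and the large subunit genes. Of these 217, 158 lay above 0, against 57.6% of all features. From total reads the 219 such features had a median of 0.04 and the 65 members at that level 0.09. Exon length moved with the values. Small subunit genes under 1500 bases of exon had a median of 0.22 from unique reads and those of 1500 or more 0.11, and large subunit genes 0.07 and 0.05. Other annotated features under 1500 bases at a mean RPKM of at least 100 had a median of 0.10. The part of exon length in the difference between subunits was not tested.

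**Figure D2:**
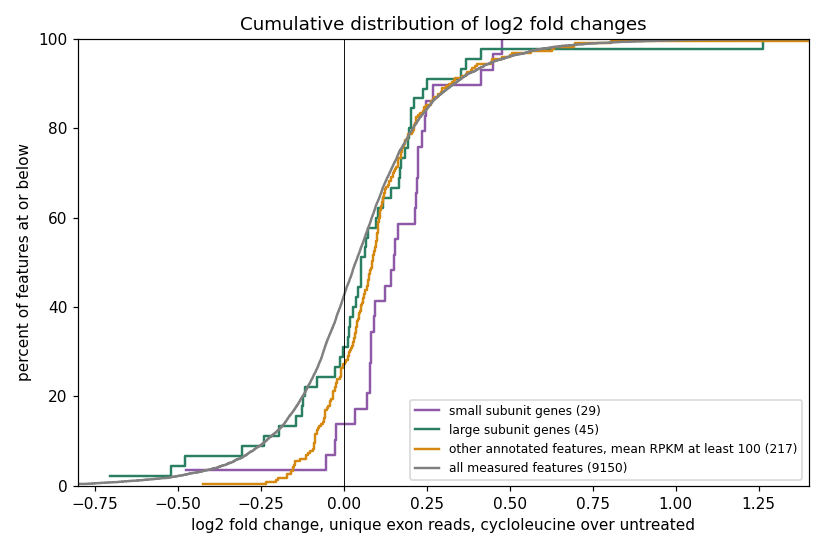
Cumulative percent of features (vertical axis) at or below each log2 fold change from unique exon reads, cycloleucine over untreated (horizontal axis), for small and large subunit genes, other annotated features with a mean RPKM of at least 100 and all measured features. The small subunit curve lies furthest right around its median of 0.15, and the large subunit curve, with a median of 0.05, follows all features (median 0.04) at its low end.

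Rpl31, Rpl37 and Rpl39 were the highest large subunit genes with at least 100 unique reads over both libraries. Rpl31, which lies beside the tunnel exit, had 2165 unique exon reads in the cycloleucine library and 1412 in the untreated library. It was higher after cycloleucine, at a log2 fold change of 0.41 from unique reads (counting interval 0.32 to 0.51) and 0.18 from total reads. Rpl37 had 3906 unique reads in the cycloleucine and 2630 in the untreated library, a log2 fold change of 0.37 from unique reads (0.30 to 0.44) and 0.20 from total reads. Rpl39, a small protein of the tunnel wall, had 1471 and 1001 unique reads in the cycloleucine and untreated libraries, at 0.35 (0.24 to 0.47). Rpl27a was at 0.25 (0.09 to 0.41) from 774 and 565 unique reads. Junction reads, which span a splice and so belong to spliced RNA, were higher in Rpl31 and Rpl37 as well, at 0.38 (0.21 to 0.55) and 0.31 (0.21 to 0.41). In Rpl39 they gave 0.19 (-0.03 to 0.41), an interval that reaches 0. Rpl27a had only 14 junction reads in the cycloleucine and 9 in the untreated library, at 0.44 (-0.88 to 1.82).

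Rpl4, with the most unique reads of any member, gave the most precise large subunit value. It had 40069 unique reads in the cycloleucine and 30248 in the untreated library, a log2 fold change of 0.20 (0.18 to 0.23), and junction reads gave 0.19. Rpl8, with 24928 and 21823 unique reads, was level at -0.01 (-0.04 to 0.02). The intervals of Rpl4 and Rpl8, both deep and of the same subunit, do not overlap.

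The stalk genes did not move alike. Rplp0, which anchors the stalk, was at 0.10 (0.07 to 0.14) from 16995 unique reads in the cycloleucine and 13752 in the untreated library. Rplp1 was at 0.17 (0.12 to 0.21) from unique reads, but at 0.02 from total reads. Rplp2 was at -0.0012 (-0.08 to 0.07), with 3123 and 2717 unique reads. Rpl12, which sits at the base of the stalk, was at -0.13 (-0.24 to -0.0087) from unique reads and 0.08 from total reads.

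Rpl5 and Rpl11 form a particle with 5S ribosomal RNA, which can also bind and inhibit MDM2. Rpl11 had 2647 unique reads in the cycloleucine and 1985 in the untreated library, at 0.21 (0.13 to 0.30), while its total reads gave 0.0010. Rpl5 was at -0.12 (-0.35 to 0.10) from 343 and 325 unique reads and at -0.07 from total reads. Of the genes of that axis Mdm2 was at -0.01, Trp53 at 0.14 (0.07 to 0.21), Cdkn1a at 0.15 (-0.11 to 0.42), Cdkn2a at 0.03 and Mdm4 at -0.22 (-0.36 to -0.10), all from total reads.

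The 8 lowest members with at least 100 unique reads were all of the large subunit. Rpl21 had 111 unique reads in the cycloleucine and 161 in the untreated library, a log2 fold change of -0.70 (-1.10 to -0.38), and total reads gave -0.62. Rpl27 was at -0.30 (-0.48 to -0.13) from 520 and 559 unique reads. Rpl30, of the L7Ae family that binds kinked RNA helices, was at -0.24 (-0.48 to -0.01). Rpl14, Rpl12, Rpl5 and Rpl6 were nearer to 0. Rpl14 had 3094 and 2974 unique reads and was at -0.14 (-0.22 to -0.07), with total reads at -0.12. Rpl22, whose protein can be lost without stopping general protein synthesis in mice, was at 0.05 (0.0074 to 0.10) from unique reads.

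The highest small subunit genes were Rps25 and Rps14. Rps25, a protein of the head of the subunit, had 4043 unique reads in the cycloleucine library and 2526 in the untreated library. Its log2 fold change was 0.48 (0.40 to 0.55) from unique reads, 0.45 from junction reads and 0.26 from total reads, so all 3 counts were higher after cycloleucine. Rps14, whose loss in human blood progenitors underlies the anaemia of the 5q- syndrome, had an RPKM of 859 in the cycloleucine and 657 in the untreated library. It was at 0.39 (0.36 to 0.41) from total reads, 0.45 (0.42 to 0.48) from 26467 and 16839 unique reads and 0.26 (0.22 to 0.30) from junction reads. The interval of its exon value does not overlap that of its junction value.

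Rps7, Rps19 and Rps24 are among the genes mutated in human Diamond-Blackfan anaemia. From unique reads Rps7 was at 0.27 (0.20 to 0.34), Rps24 at 0.15 (0.11 to 0.20) and Rps19 at 0.15 (0.10 to 0.20). From total reads they were at 0.19, 0.18 and 0.06, and junction reads gave 0.11 (0.01 to 0.21) for Rps7. These genes are not a full list of those mutated in that disease, and give no common direction for it. Rps6, the classical substrate of the S6 kinases, had 122 and 91 unique reads in the cycloleucine and untreated libraries, 0.983% of its reads. It was at 0.21 (-0.18 to 0.63) from these and at 0.09 (0.05 to 0.13) from total reads. Rps15 was at 0.08 (0.04 to 0.11).

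Rps3, Rps20 and Rps9 were deep and mostly uniquely placed. Rps3 was at 0.14 (0.12 to 0.17) and Rps20 at 0.08 (0.05 to 0.12). Rps9, with 18593 and 16417 unique reads, was at -0.02 (-0.05 to 0.0078), the one of the 3 not higher. Its total reads gave -0.06 (-0.09 to -0.03) and its junction reads -0.09 (-0.15 to -0.03), both intervals below 0. Junction reads gave 0.02 (-0.03 to 0.07) for Rps3 and -0.04 (-0.12 to 0.03) for Rps20. These 3 genes were chosen for their depth after their values were seen. Rpsa, the laminin receptor precursor at the mRNA exit side, was at -0.05 (-0.12 to 0.010) from unique and 0.06 from total reads. Rps27a, made as a fusion with ubiquitin, was at -0.03 (-0.26 to 0.21) from unique and 0.04 (-0.0019 to 0.09) from total reads.

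Some substrates of SAM-dependent methylation are themselves ribosomal proteins. Rps2, the substrate of PRMT3, was at 0.25 (0.06 to 0.44) from 551 and 403 unique reads but at -0.11 from total reads. Its few junction reads, 2 in the cycloleucine and 11 in the untreated library, gave -2.66 (-5.88 to -0.47). The 7 marked pseudogenes of Rps2 held 40.4% of the reads of gene and copies together, and with them added the value was -0.083. Its direction thus depended on the kind of read. Rps10, methylated by PRMT5, was at 0.03 (-0.04 to 0.11). Rpl3, methylated on a histidine by METTL18, was at -0.08 (-0.23 to 0.07) from unique and -0.17 from total reads. Its 2 marked pseudogenes held 63.7% of the reads of gene and copies together, and with them added the value was -0.015. Rps2, Rps10 and Rpl3 were named for their role after the values were seen, and protein methylation was not measured.

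Several other deep members, named after their values were seen, were higher by total and unique exon reads. Rpl32 had 1066 RPKM in the cycloleucine and 910.1 RPKM in the untreated library, at 0.23 (0.20 to 0.26) from total, 0.24 (0.19 to 0.29) from unique and 0.27 from junction reads. Rps18, at the top of the head of the small subunit, was at 0.22 from total and 0.25 (0.16 to 0.33) from unique reads, but at -0.14 (-0.56 to 0.27) from 101 junction reads in the cycloleucine and 97 in the untreated library. Rps4x, the X-linked S4 gene, was at 0.14 from total and 0.09 (0.06 to 0.13) from unique reads, and at 0.12 (0.06 to 0.18) from junction reads. Rps26, which contacts the mRNA at the exit channel, was at 0.18 from total and 0.16 (0.11 to 0.22) from unique reads, and its junction reads gave 0.01 (-0.11 to 0.14).

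In other members the kinds of reads gave different values. Rpl34 was at 0.17 (0.13 to 0.21) from total and 0.03 (-0.04 to 0.10) from unique reads. The value from total reads was the higher and the intervals do not overlap. Rpl7a was at 0.22 from total and 0.20 (0.13 to 0.26) from unique reads, but its junction reads, 163 in the cycloleucine and 219 in the untreated library, gave -0.63 (-0.93 to -0.33). Rpl10a, at 0.14 from unique reads, and Rpl19, at 0.18 from total reads, likewise had fewer junction reads relative to depth after cycloleucine, at -0.96 (-1.60 to -0.35) and -0.71 (-1.18 to -0.24). These members were named after their values were seen, and the part of read placement in the gaps was not tested.

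**Figure D3:**
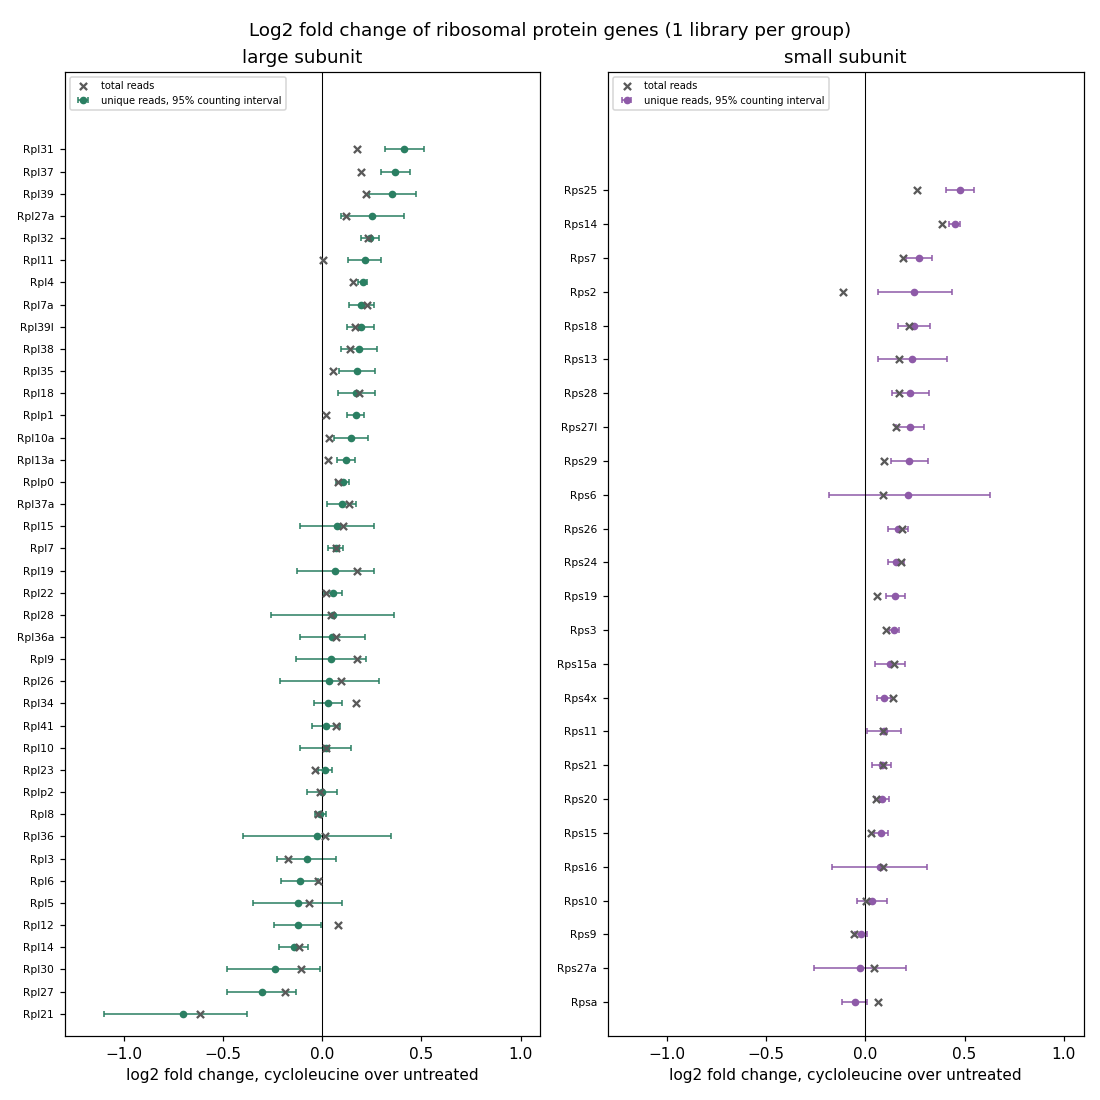
Log2 fold change, cycloleucine over untreated (horizontal axis), of members with at least 100 unique exon reads over both libraries, 4 of them not drawn, large subunit left and small subunit right. Points are unique reads with 95% counting intervals and crosses are total reads. Rps25 (0.48) and Rps14 (0.45) stand at the top of the small subunit and Rpl21 (-0.70) at the bottom of the large subunit.

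Total and unique reads gave the same sign in 66 of 74 members measured by both, and the median gap between them was 0.06 in log2. The widest gap was in Rpl23a, at 0.28 from total reads and 1.26 (0.44 to 2.34) from 41 unique reads in the cycloleucine and 14 in the untreated library, 0.411% of its reads. Rps23, with 41 and 50 unique reads, was at -0.47 (-1.12 to 0.14) from these and 0.22 from total reads. Rps12 and Rps27 had no uniquely placed exon read in either library, which allows up to 3, and their total reads gave 0.28 and -0.06. By unique reads 7 of 74 members were higher by 25% or more, where 10.6% of all 9150 features were, and 4 lower by 20% or more, where 5.84% were. Among the 7 were Rps25, Rps14, Rpl31, Rpl37, Rpl39 and Rpl23a, and the 4 were Rpl21, Rpl17, Rpl24 and Rps23, each of the 4 with fewer than 200 unique reads in either library. At a ratio of 1.5, Rpl23a was higher and Rpl21 lower, where 2.42% and 1.44% of all features were, and at a ratio of 2 Rpl23a was higher and no member lower, where 0.317% and 0.208% were. Junction reads put 6 of 62 members at 25% or more higher and 5 at 20% or more lower, where 15.8% and 12.1% of 7384 features were.

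**Figure D4:**
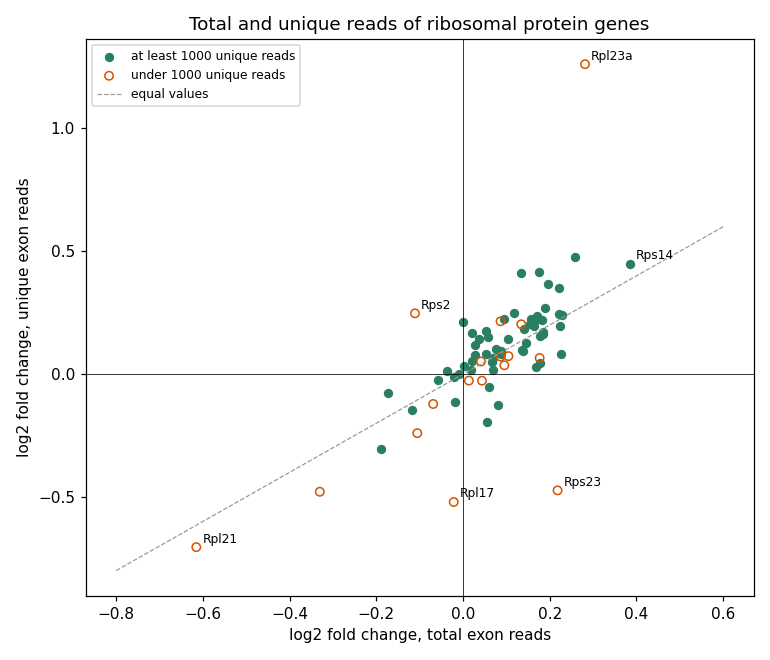
Log2 fold change from unique exon reads (vertical axis) against that from total exon reads (horizontal axis) for the 74 members measured by both, with filled points for at least 1000 unique reads over both libraries and open circles for fewer. Filled points lie near the dashed line of equal values, and the widest departures, Rpl23a and Rps23, are open circles.

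For 2 of the 4 members furthest from 0, Rpl35a and Rpl24, reads placed in copies or in an overlapping gene model moved the value. In all, 20 members were overlapped by another annotated gene model. The table had 250 features marked as pseudogenes of these genes, with 36256 reads in the cycloleucine and 30922 in the untreated library, 6.13% of them uniquely placed. With the reads of its 6 marked pseudogenes added, Rpl35a, a protein of the large subunit mutated in some Diamond-Blackfan anaemia, had 919 reads in the cycloleucine and 668 in the untreated library. Its log2 fold change was then 0.22, against 0.66 for the gene alone. Rpl21 had 207 and 256 reads with its 13 marked pseudogenes and stayed lower, at -0.54. Rpl24 shares its locus with the gene model Gm28037, which had 1603 reads in the cycloleucine and 913 in the untreated library and was at 0.58. The reads of both together were 3015 and 2421, a log2 fold change of 0.08 (0.0028 to 0.16), against -0.33 for Rpl24 alone. In the same way Rpl13 and the model Gm20388 that spans it had 2509 and 2116 reads together, at 0.0096 (-0.07 to 0.09). With marked pseudogenes added to every measured member, 62 of 78 lay above 0 and 16 below, and the median was 0.08.

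Intron reads were compared with exon reads of the same gene, since library scaling then cancels. Of 60 members whose libraries together held 100 or more intron reads and 200 or more exon reads, 39 had a lower intron to exon ratio after cycloleucine and 21 a higher one, and the median log2 change was -0.13, beside 0.02 over 6803 genes. The ratio was lower by 20% or more in 15 members and higher by 25% or more in 8, where 13.6% of all genes were that much lower and 17.3% that much higher. From unique reads 50 members were compared, 18 of them lower and 5 higher by that much, where 15.2% and 18.5% of 6122 genes were. The lowest was Rps26, with 37 intron reads in the cycloleucine and 79 in the untreated library, a log2 ratio change of -1.50 (-2.06 to -0.94, a normal approximation from the 4 counts). Rps28 followed at -0.95 (-1.33 to -0.57), with 96 and 140 intron reads.

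Many ribosomal protein genes carry small nucleolar RNAs (snoRNAs), guides of ribosomal RNA modification, in their introns, and their intron reads hold both kinds of RNA. The 23 members with a snoRNA feature inside them had a median change of -0.03 and the 37 without one -0.14. From total reads the 3 highest ratio changes were all in members with such a feature. From unique reads Rpl23 was still highest, but the members ranked next to it held no such feature. Rpsa had 9325 intron reads in the cycloleucine and 5312 in the untreated library, a log2 ratio change of 0.51 (0.46 to 0.57), and 0.32 from 1256 and 909 unique intron reads. Rpl23 had 2030 and 1228 intron reads, at 0.53 (0.42 to 0.63), and 0.63 from unique reads. Rpl37 was at 0.65 (0.41 to 0.90) from 421 and 198 intron reads, but its unique intron reads, 99 and 102, gave -0.61. From unique reads the order of the medians turned round, with -0.24 over the 18 members with a snoRNA feature still compared and -0.15 over 32 without one. Features of snoRNAs inside these 3 genes held at most 14 reads in a library, so most intron reads were not assigned to them.

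**Figure D5:**
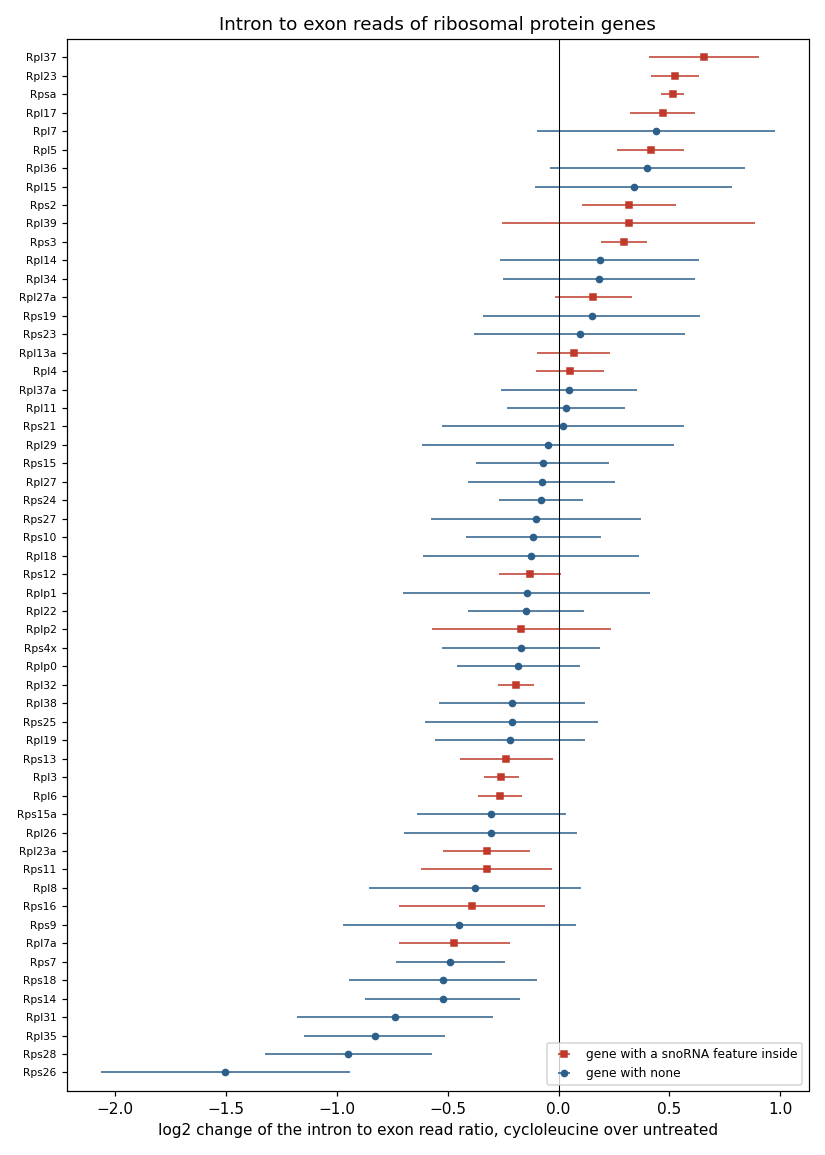
Log2 change of the intron to exon ratio of total reads, cycloleucine over untreated (horizontal axis), for 56 of the 60 members compared. Squares are genes that hold a snoRNA feature and circles genes that hold none. Bars are 95% intervals from the 4 counts. Rps26 (-1.50) is lowest, and the squares of Rpl37 (0.65), Rpl23 (0.53) and Rpsa (0.51) are highest.

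Paralogues divided into expressed and silent ones. Rpl39l, the Rpl39 paralogue best known from mouse testis, had 155 RPKM in the cycloleucine and 138 RPKM in the untreated library, and 98.4% of its reads were unique. It was at 0.19 (0.13 to 0.26) from unique reads. Rps27l, a p53 target gene and paralogue of Rps27, had 197 RPKM in the cycloleucine and 176 RPKM in the untreated library and was at 0.22 (0.15 to 0.29). Rpl3l, the striated muscle paralogue of Rpl3, had 2 and 1 reads, and Rpl10l, the testis paralogue of Rpl10, 3 and 2. Rps4l, which GENCODE M21 annotates as a transcribed processed pseudogene, had 0 and 1. These 3 were below the filter, so no fold change is given.

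Of 7 cytosolic ribosome components and paralogues outside the naming rule, not all of them parts of the mature ribosome, 5 lay above 0, from total and from unique reads. Of all features 50.9% did from total and 57.6% from unique reads. Gnb2l1, which encodes the scaffold RACK1 on the small subunit, was the best measured, with 68488 exon reads in the cycloleucine and 50294 in the untreated library, at 0.21 (0.19 to 0.23). Fau, which encodes a ribosomal protein fused to a ubiquitin-like sequence, was at 0.07 (0.03 to 0.10) from total and 0.18 from unique reads. Rpl36al was at 0.05, Rsl24d1 at -0.04, Rpl7l1 at -0.18 (-0.27 to -0.09) and Rpl22l1, from 74 and 38 reads, at 0.69 (0.14 to 1.33). The 7 had a median of 0.07 from total and 0.04 from unique reads, and Rpl22l1 alone was higher by 25% or more, where 9.7% of all features were. Rps3a1, named after its value was seen, was at 0.09.

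Genes that share the TOP tract or build ribosomes were compared by counts. Over all measured features 50.9% lay above 0 from total and 57.6% from unique reads, with medians of 0.0035 and 0.04. Of 16 translation factors and other genes known for TOP mRNAs, 12 lay above 0 from total reads with a median of 0.04. From unique reads 14 did, with a median of 0.10. None was past 25% higher or 20% lower from total reads, where 9.7% and 7.92% of all features were. Tpt1 was at 0.19, Eef2, the translocation factor, at 0.18 (0.17 to 0.20), Eif3h at 0.18 and Eif4b at 0.14. Ribosome biogenesis genes lay the other way, with 22 of 28 below 0, a median of -0.11 and 3 lower by 20% or more from total reads, where 7.92% of all features were that much lower. From unique reads 20 of 28 lay below 0 and the median was -0.06. Of all features 49.1% lay below 0 from total and 42.4% from unique reads. Nop56, of the box C/D snoRNA particle, was at -0.49 (-0.54 to -0.45), Rrp12 at -0.44, Rrp1b at -0.39 and the nucleolar GTPase gene Gnl3 at -0.30. Mitochondrial ribosomal proteins, 77 measured, had a median of -0.03 from total reads, with 34 above and 43 below 0. Of the 77, 1 was higher by 25% or more and 8 lower by 20% or more, where 9.7% and 7.92% of all features were. From unique reads the median was 0.0061 over 76, with 43 (56.6%) above and 33 below 0, against 57.6% of all features above 0. The list's median was below that of all features by either kind of read. By unique reads 5 were higher and 3 lower by that much, where 10.6% and 5.84% of all features were. Among them Mrpl39 was at 0.43 (0.21 to 0.67), Mrpl53 at -0.49 (-1.19 to 0.14), and Mrps5 and Mrpl46 both at -0.39.

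Signalling genes upstream of TOP mRNAs were split, with 7 of 14 above and 7 below 0 and a median of 0.04 from total reads. From unique reads 8 lay above and 6 below 0, with a median of 0.05. These shares were near those of all features, 50.9% above 0 from total and 57.6% from unique reads. The S6 kinase genes Rps6kb2 and Rps6kb1 were at -0.46 (-0.73 to -0.21) and -0.25 (-0.37 to -0.15), and Larp1, which encodes the TOP binding protein, at -0.22 (-0.27 to -0.18). Rictor, of mTOR complex 2, was at 0.31 (0.18 to 0.46). Of these 14 genes Rps6kb2 alone was lower by 20% or more, and none was higher by 25% or more, from total reads, where 7.92% and 9.7% of all features were. From unique reads 1 was lower and Rictor higher by that much, where 5.84% and 10.6% of all features were.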

How the data were processed

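Both libraries were read from a single gene table. Per the file headers, the authors deposited read counts per gene, exon, intron and exon-exon junction, each as total and as uniquely placed reads, and RPKM values made from them. Multiplying RPKM back by exon length and gene reads returned the deposited exon counts in 81 of 81 members in both libraries. A deposited fold column, the signed ratio of both RPKM values by the authors, matched in 80 of 80 members with values above 0 and was not used further. The submitters' processing notes name mm10 as the build. For the aligner, counting tool, annotation and strand setting nothing is stated in the labels or headers, so reads of overlapping genes may not be separated. Feature starts were counted from 0 in the table and were given 1-based. The table had 0 columns of other libraries.

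Log2 fold changes used a pseudocount of 0.1 RPKM and were computed for total reads, and for unique reads scaled by exon length and unique gene reads, with Python 3.11.15, pandas 2.3.3 and scipy 1.17.1. The size rule was a ratio of 25% or more above, or 20% or more below, the untreated value. The computation was tested on simulated data. Intron ratios had 0.5 added to each count. A snoRNA feature was one with a Snord or Snora symbol or the GENCODE M21 type snoRNA inside the gene. Members and lists were chosen with earlier results of these data known. Named members were the 8 highest and 8 lowest by unique reads among those with at least 100, the 6 highest by untreated RPKM, genes of named role, paralogues, and the 3 highest and 3 lowest intron ratio changes, and up to 4 genes of each comparison list by size of change. Genes named outside this rule are said to be so or are described for their overlap or placement. Alternatives were other pseudocounts, filters, scalings and read classes. Some genes are not reported here and were left out of the plots that name genes, while counts and medians include them.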

Additional observations from a re-analysis of the deposited data

How the results depend on the processing

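With 1 library per group, limits here are counting depth and read placement, and no spread between cultures is known. No paired analysis was possible because both conditions had a single library. The median of all members stayed above 0 in every alternative run, from 0.08 with trimmed mean scaling to 0.13 with at least 1000 unique reads, a restriction added after seeing the data. That restriction moved the large subunit median to 0.10, and junction reads moved the ribosome biogenesis median to -0.039. The cause was not tested. By total reads 2 of 78 members were past the size rule higher and 2 lower, where 9.7% and 7.92% of all features were. By unique reads 7 and 4 of 74 were, where 10.6% and 5.84% of all features were. By junction reads 6 and 5 of 62 were, where 15.8% and 12.1% were. With at least 1000 unique reads, unique reads put 6 higher and 0 lower of 57. Of 208 other annotated features at that depth and a mean RPKM of at least 100, 21 were higher and 1 lower. By total reads, 1 and 1 of 78 members were past a ratio of 1.5, where 3.03% and 2.47% of all features were. None was past a ratio of 2. Among 19 members with over 50% unique reads 1 was higher and 1 lower. Of 77 at 5 RPKM or more, 2 were higher and 1 lower. Of all 9613 measured features 932 were past the size rule higher and 761 lower. These were 614 and 463 with a pseudocount of 1, and 405 and 276 of 5667 at 5 RPKM or more. With no filter on low values they were 5492 and 4662 of 43346. At a ratio of 1.5 they were 291 and 237, and at a ratio of 2 they were 70 and 64. Of 203 values of named genes, 53 lay outside the counting interval of the total reads, 27 by unique and 26 by junction reads. The 203 also count other pseudocounts, filters and scalings, which moved nearly all genes little, the scalings by 0.0035 or 0.0041 each. Of the values by unique and junction reads alone, most lay outside. None of the 53 reversed a value past the size rule, but among these genes only Rps14 and Rpl21 were past it by total reads. Rpl12, Rpl23, Rpsa and Rps27a were among those that changed sign by unique reads.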
